A study of Mus musculus with 5 samples.

Results

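The genes described here encode 8 proteins that make microRNAs and load them onto their effector complex: *Drosha*, *Dgcr8*, *Xpo5*, *Dicer1*, *Tarbp2*, *Ago1*, *Ago2* and *Ago3*. They were chosen by name, with their values in these libraries already known, and all 8 were found by symbol among the 55487 genes of the count files. RNA-seq by SMART-seq was performed on CD4 single positive (CD4 SP) thymocytes of C57BL/6J mice, with 1 library per mouse. There were 3 wild type (WT) libraries and 2 *Tet2/3* DKO libraries, whose labelled genotype is Tet2-/-Tet3flx/flxCD4cre. *Tet2* is thus lost in the germline, whereas *Tet3* is deleted by a Cre recombinase that the *Cd4* promoter drives in T cells from the double positive thymocyte stage on. The mice were 21 to 30 days old per the methods of the study. In both genotypes live cells with low CD24 were sorted as positive for CD4 and TCRβ and negative for CD8 and for the lipid-loaded CD1d tetramer, which removes iNKT cells.

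microRNAs are cut out of long primary transcripts in consecutive steps. In the nucleus, the RNase III enzyme DROSHA and its RNA-binding partner DGCR8 form the microprocessor, which releases a hairpin from the primary transcript. Exportin 5 carries the hairpin to the cytoplasm with the GTPase RAN, and DICER1 with its partner TARBP2 trims it to a short duplex. An Argonaute protein keeps one strand and, through GW182 scaffold proteins, brings deadenylation and decapping enzymes to target mRNAs. In developing T cells, loss of DROSHA or DICER1 is known to impair the production of mature microRNAs. TET2 and TET3 oxidize methylated cytosine in DNA, mostly where it stands before a guanine (CpG).

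The reads assigned to genes ranged from 23529075 to 27267031 in WT and from 17607089 to 21371743 in *Tet2/3* DKO libraries. Reads outside annotated genes made up 5.70% in *Tet2/3* DKO replicate 1 and 3.51% to 3.72% in the other 4 libraries. *Tet3* had 43.8 to 52.5 CPM (counts per 1000000 reads on genes) in WT and 13.1 to 20.0 in *Tet2/3* DKO cells, with a log2 fold change of -1.50 (SE 0.18, edgeR adjusted p = 0.00121), while *Tet2*, whose count per gene does not test an exon deletion, had 52.4 to 57.8 and 58.6 to 91.5 CPM. The sex labels did not hold in 2 libraries. WT replicate 1, labelled female, had 0 *Xist* reads and 6821 reads on 4 Y-linked genes, and *Tet2/3* DKO replicate 1, labelled male, had 744 and 7. The methods of the study call all of these mice male, which the reads of *Tet2/3* DKO replicate 1 go against. Without WT replicate 1 the log2 fold change of *Drosha* was -3.66, and without *Tet2/3* DKO replicate 1 it was -3.72, against -3.70 with all 5 libraries.

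*Drosha*, the catalytic subunit of the microprocessor, was the gene of the 8 that differed between the genotypes. *Drosha* (ENSMUSG00000022191) lies at chr15:12824815-12935291 of GRCm38 (mm10) on the plus strand. Its level was 177, 156 and 167 CPM in the 3 WT libraries and 13.0 and 12.6 CPM in the 2 *Tet2/3* DKO libraries. The groups stood far apart, and the libraries within each group lay close together. These levels rest on 4584, 3714 and 4583 reads in WT and on 272 and 226 reads in *Tet2/3* DKO cells, so a remaining signal was present in both mutant mice. The mean was 167 ± 10.4 CPM (SD, n = 3) in WT and 12.8 ± 0.228 CPM (SD, n = 2) in *Tet2/3* DKO cells, so that the WT level was 13.0 times the *Tet2/3* DKO level. The log2 fold change was -3.70 (SE 0.12). In bulk RNA, fewer cells that express a gene and less of its RNA per cell cannot be told apart.

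In WT CD4 SP cells *Drosha* ranked at the 90.2 percentile of CPM among the 13525 genes tested, and in *Tet2/3* DKO cells at the 44.4 percentile. Of all genes tested, 16 (0.118%) had a lower log2 fold change than *Drosha*. All of them were less abundant: among the 2227 genes with an average log2 CPM at or above that of *Drosha*, 0 had a lower log2 fold change. By size of the change it was number 10 of the 203 genes that were lower in *Tet2/3* DKO cells at an edgeR adjusted p under 0.01. These ranks use the contrast by which the gene was chosen and are given as a description.

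**Figure D1:**
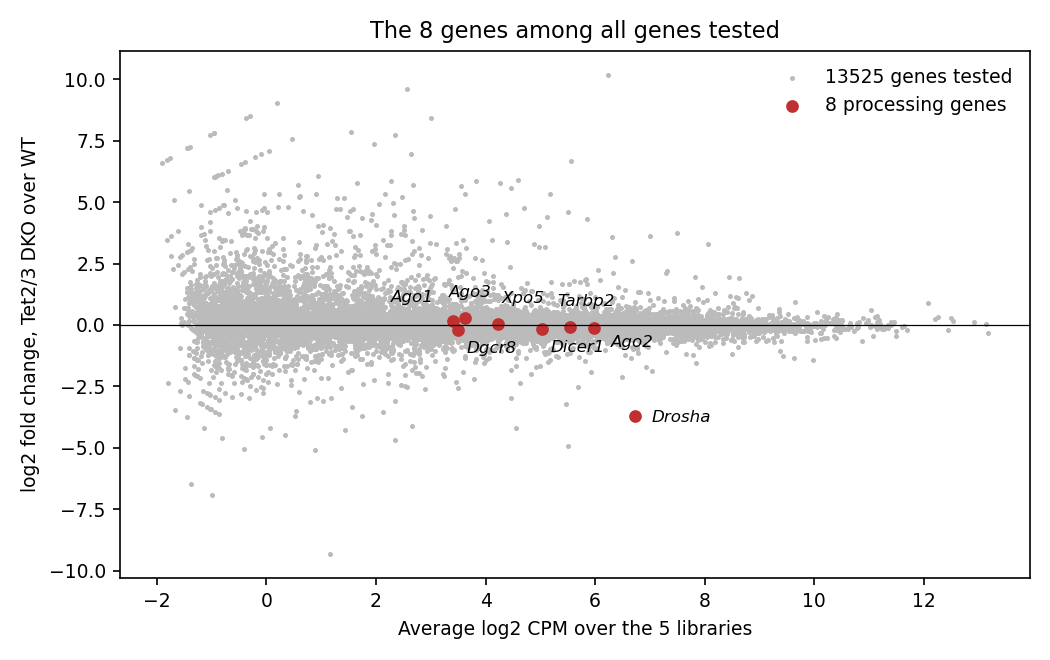
Average log2 CPM over the 5 libraries (x axis) and log2 fold change of *Tet2/3* DKO over WT (y axis) for the 13525 genes tested (grey points), with the 8 processing genes in red. *Drosha* stands at -3.70 on the right side of the cloud, where no grey point lies lower, and the 7 other genes lie between -0.20 and 0.29.

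*Dgcr8* (ENSMUSG00000022718, chr16:18253948-18289246, minus strand) encodes the partner that binds the hairpin and positions DROSHA on it. Its level was 12.7, 13.5 and 9.36 CPM in WT and 10.9 and 9.62 CPM in *Tet2/3* DKO cells. The groups overlapped, and the log2 fold change was -0.20 (SE 0.21), with values from -0.35 without WT replicate 3 to -0.10 without WT replicate 2. The balance of the 2 microprocessor transcripts differed accordingly. Measured as CPM per kilobase of exon, *Drosha* was 18.1, 15.1 and 23.1 times *Dgcr8* in the WT libraries, and 1.55 and 1.70 times in the *Tet2/3* DKO libraries. The first exons of *Dgcr8* form hairpins that the microprocessor itself can cut, one of which is annotated as *Mir1306* inside the gene, but it lies within an exon of *Dgcr8*, and reads shared by overlapping genes are in neither count, so it gives no value of its own.

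*Xpo5* (ENSMUSG00000067150, chr17:46202782-46243598, plus strand) encodes the export receptor of the hairpin. Its level was 15.9, 22.0 and 17.0 CPM in WT and 19.0 and 18.9 CPM in *Tet2/3* DKO cells, with both mutant libraries inside the WT range. The log2 fold change was 0.05 (SE 0.17).

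*Dicer1* (ENSMUSG00000041415, chr12:104687742-104751952, minus strand), the cytoplasmic RNase III enzyme, had 33.3, 33.9 and 35.8 CPM in WT and 34.6 and 26.1 CPM in *Tet2/3* DKO cells. One mutant library lay within the WT range and the other below it, giving a log2 fold change of -0.17 (SE 0.14). Without *Tet2/3* DKO replicate 1 this value was -0.40, and without *Tet2/3* DKO replicate 2 it was -0.0047. *Tarbp2* (ENSMUSG00000023051, chr15:102518192-102523676, plus strand) encodes the double-stranded RNA-binding partner of DICER1. Its level was 47.2, 43.9 and 50.3 CPM in WT and 44.8 and 45.3 CPM in *Tet2/3* DKO cells, again inside the WT range, and the log2 fold change was -0.07 (SE 0.11).

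Among the Argonaute genes, *Ago2* (ENSMUSG00000036698, chr15:73095844-73184935, minus strand), whose protein can cleave its target RNA, had the highest CPM. It had 61.4, 70.4 and 64.9 CPM in WT and 55.2 and 64.5 CPM in *Tet2/3* DKO cells, with a log2 fold change of -0.13 (SE 0.11), which was -0.03 without *Tet2/3* DKO replicate 1 and -0.26 without *Tet2/3* DKO replicate 2. *Ago1* (ENSMUSG00000041530, chr4:126435012-126468583) and *Ago3* (ENSMUSG00000028842, chr4:126331704-126429556) are neighbours on the minus strand and, like *Ago2*, encode proteins that hold the mature microRNA. *Ago1* had 9.55, 9.94 and 10.6 CPM in WT and 12.5 and 10.2 CPM in *Tet2/3* DKO cells. *Ago3* had 11.3, 12.4 and 10.4 CPM in WT and 15.4 and 12.2 CPM in *Tet2/3* DKO cells. The groups overlapped for all 3 genes. The log2 fold change was 0.18 (SE 0.18) for *Ago1* and 0.29 (SE 0.17) for *Ago3*, and these values were 0.02 and 0.10 without *Tet2/3* DKO replicate 1 and 0.30 and 0.42 without *Tet2/3* DKO replicate 2. *Ago4*, the other Argonaute gene of this cluster, had 0 to 4 reads per library and was not tested.

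**Figure D2:**
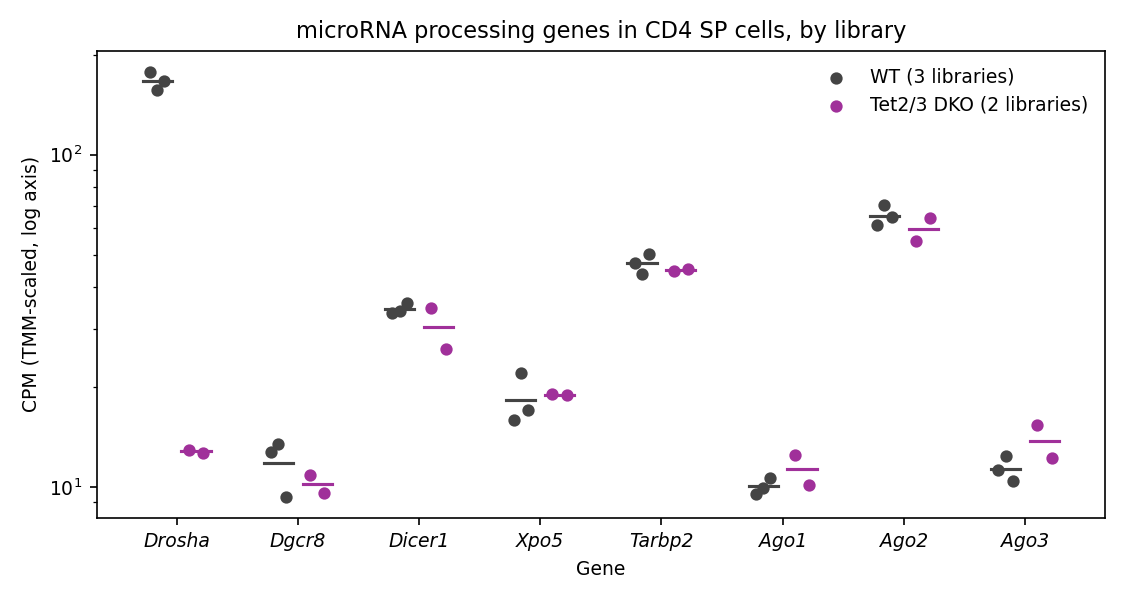
CPM on a log axis (y axis) of the 8 genes (x axis) in each WT and *Tet2/3* DKO library (points), with the mean of each group as a bar. The *Drosha* points fall into a WT set at 156 to 177 CPM and a *Tet2/3* DKO set at 12.6 and 13.0 CPM, and the 2 sets overlap for each other gene.

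Thus 1 of the 8 genes, *Drosha*, was called lower and 0 were called higher at an edgeR adjusted p under 0.01, where 1.5% and 2.42% of all genes tested were called lower and higher. *Drosha* was also the 1 gene of the 8 whose groups did not overlap, against 39.1% of all genes tested, 19.5% being lower and 19.6% higher in *Tet2/3* DKO cells. As the genes were chosen on this contrast, nothing is read from these counts. The median log2 fold change of the 7 others was -0.07, and that of all genes tested was 0.01. The log2 fold change of *Drosha* was 3.64 below the median of the 7 others.

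Levels of different genes were compared per length, as CPM per kilobase of merged exons. In WT CD4 SP cells *Drosha* was the most abundant of the 8 transcripts at 28.1 ± 1.75 (SD, n = 3), followed by *Tarbp2* at 10.4 ± 0.702 and *Ago2* at 4.67 ± 0.323. *Xpo5* had 2.67, *Dicer1* 2.05, *Dgcr8* 1.54, *Ago1* 1.24 and *Ago3* 0.685. The libraries of neighbours in this order overlapped for *Dgcr8* and *Ago1* alone. In *Tet2/3* DKO cells *Drosha* moved from first to the fourth place at 2.16 ± 0.0385 (SD, n = 2), below *Tarbp2* (9.91), *Ago2* (4.26) and *Xpo5* (2.77) and above *Dicer1* (1.81). *Ago1* (1.40) and *Dgcr8* (1.33) again overlapped, and *Ago3* was last at 0.831. Against *Tarbp2*, the ratio of *Drosha* on this scale was 2.55 to 2.88 in WT and 0.214 to 0.222 in *Tet2/3* DKO libraries. With the length of the longest transcript in place of merged exons the WT order was the same, while in *Tet2/3* DKO cells *Dicer1* (3.08) stood above *Drosha* (2.80).

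*Drosha* begins next to a gene that runs the opposite way, and that gene did not share its change. The gene *6030458C11Rik* (ENSMUSG00000022195, chr15:12808177-12824649, minus strand) starts 166 bases from the start of *Drosha*. It had 17.8, 16.9 and 19.9 CPM in WT and 15.2 and 20.0 CPM in *Tet2/3* DKO cells. The groups overlapped, and the log2 fold change was -0.06 (SE 0.17, edgeR adjusted p = 0.884). The bases between both start sites, at chr15:12824650-12824814 of GRCm38.p6 and read on the plus strand, are given from RefSeq because a gene that differed and a gene that did not share them. Capitals mark each CG, the step at which TET proteins act on methylated cytosine.
*Drosha* and *6030458C11Rik* intergenic run: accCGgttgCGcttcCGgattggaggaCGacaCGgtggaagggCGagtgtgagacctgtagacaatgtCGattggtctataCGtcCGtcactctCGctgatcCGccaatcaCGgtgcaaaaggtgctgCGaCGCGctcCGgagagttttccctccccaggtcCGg
This run of 165 bases holds 17 CG. In the 250 bases before the start of *Drosha*, which include this run, there were 33 CG, and 4.03% of 32851 RefSeq mouse promoters of that length hold as many. The other members with a promoter entry were also CG-rich. The letters CG, which read the same on both strands, occurred 18 to 39 times in the 8 entries of 7 members, whereas the median promoter holds 6 and 92.1% of promoters hold at least one. *Ago2* was not among the entries. DNA methylation was not measured in these libraries.

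On the other side, the nearest protein-coding gene is *Cdh6*, a cadherin gene at 93.4 kb, which had 0 reads in all 5 libraries. The annotated small gene *Gm47288* overlaps an exon of *Drosha* on the same strand, so reads they share are in neither count and it is given no value. Of 37 annotated genes within 1 Mb of *Drosha*, 8 were tested. The 7 genes other than *Drosha* had log2 fold changes from -0.21 to 0.30, and 0 of them were called by edgeR or by DESeq2 at an adjusted p under 0.01, with 2 at an unadjusted edgeR p under 0.05. Over all genes tested these shares were 3.92% and 23%, and 7 genes are too few to set apart from them.

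**Figure D3:**
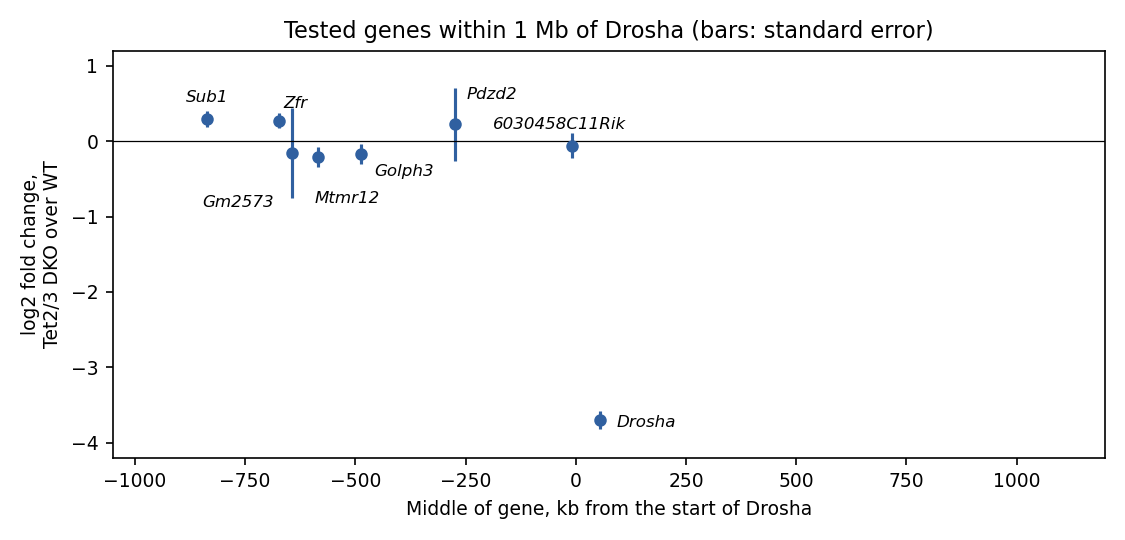
Log2 fold change of *Tet2/3* DKO over WT (y axis, bars give the standard error of the fit) for the 8 genes tested within 1 Mb of *Drosha*, by distance of the middle of the gene from the start of *Drosha* in kb (x axis). *Drosha* lies at -3.70, and the 7 others lie between -0.21 and 0.30.

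The rest of the microRNA pathway was read from lists of 88 genes that leave out the 8 members. Of these, 84 were tested and 0 were called by edgeR at an adjusted p under 0.01, against 3.92% of all genes tested. At an unadjusted p under 0.05 there were 17 (20.2%), against 23% of all genes tested, and DESeq2 called 4 (4.76%) at its adjusted p under 0.01, against 6.91% of the genes to which it gave an adjusted p. These shares lie near or below those of all genes. Those 4 were *Btg2*, *Smc4*, *Aopep* and *Dnm2*, which edgeR placed between 0.0199 and 0.0325. The median log2 fold change of the 84 genes was -0.03, and the values ran from -1.36 to 0.77. None of them approached the -3.70 of *Drosha*.

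The 13 microprocessor cofactors, RNA-binding proteins and helicases that act with DROSHA on some hairpins, had log2 fold changes from -0.19 to 0.11. *Ddx5*, a DEAD-box helicase of the large microprocessor complex, had 1016, 1008 and 1019 CPM in WT and 852 and 939 CPM in *Tet2/3* DKO cells, with a log2 fold change of -0.18 (edgeR adjusted p = 0.220). *Safb*, a scaffold attachment factor, stood at -0.14, and at -0.23 without *Tet2/3* DKO replicate 1 and -0.08 without *Tet2/3* DKO replicate 2. *Ran*, the GTPase of nuclear export, stood at 0.15, and *Prkra*, another partner of DICER1, at -0.19. Without *Tet2/3* DKO replicate 1 these values were 0.22 and -0.36, and without *Tet2/3* DKO replicate 2 they were 0.06 and -0.07. With all 5 libraries, the listed genes that act before the Argonaute step, other than *Drosha*, thus ran from -0.20 (*Dgcr8*) to 0.15 (*Ran*).

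The 5 chaperones that load Argonaute had a median log2 fold change of 0.18. *Hspa8*, a constitutive HSP70 chaperone, had 1276, 1256 and 1192 CPM in WT and 1597 and 1440 CPM in *Tet2/3* DKO cells, with a log2 fold change of 0.29 (SE 0.08, edgeR adjusted p = 0.0642). *Hsp90ab1*, an HSP90 chaperone, had a log2 fold change of 0.34 (SE 0.11, edgeR adjusted p = 0.0973). *Ptges3*, an HSP90 co-chaperone, stood at 0.18, *Hsp90aa1*, another HSP90 chaperone, at 0.08 and *Dnaja2*, an HSP40 co-chaperone, at -0.10. The value of *Ptges3* was 0.28 without *Tet2/3* DKO replicate 1 and 0.06 without *Tet2/3* DKO replicate 2. None passed the threshold, and the groups did not overlap for 3 that were higher and 1 that was lower, against 19.6% and 19.5% of all genes tested.

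The GW182 scaffolds *Tnrc6a*, *Tnrc6b* and *Tnrc6c*, which link Argonaute to deadenylases, stood at -0.08, 0.24 and 0.15. *Tnrc6b* had 52.8, 48.2 and 57.2 CPM in WT and 80.2 and 43.9 CPM in *Tet2/3* DKO cells, so that its value was -0.27 without *Tet2/3* DKO replicate 1 and 0.59 without *Tet2/3* DKO replicate 2. *Tnrc6a* (0.09 and -0.27) and *Tnrc6c* (-0.06 and 0.30) also changed sign between these fits. Of the 16 deadenylation genes, *Btg2*, an antiproliferative protein that recruits the CCR4-NOT deadenylase, had 246, 257 and 246 CPM in WT and 306 and 329 CPM in *Tet2/3* DKO cells. The groups did not overlap, as was so for 19.6% of all genes tested in this direction. The log2 fold change of *Btg2* was 0.35 (SE 0.08, edgeR adjusted p = 0.0302). *Pan2*, a deadenylase subunit, stood at -0.38 (edgeR adjusted p = 0.147), and *Cnot10*, a CCR4-NOT subunit, at -0.35 (edgeR adjusted p = 0.0762). The value of *Cnot10* was -0.22 without *Tet2/3* DKO replicate 1 and -0.51 without *Tet2/3* DKO replicate 2. The 11 decapping and decay genes ran from -0.18 for *Edc4*, a decapping scaffold, to 0.17 for *Eif4enif1*, which binds the cap-binding protein, with *Lsm14a*, a processing body protein, at -0.17. *Edc4* stood at -0.0025 without WT replicate 2 and at -0.32 without *Tet2/3* DKO replicate 2. *Eif4enif1* stood at 0.23 without *Tet2/3* DKO replicate 1 and at 0.10 without *Tet2/3* DKO replicate 2. The 9 tested genes of microRNA tailing and turnover ran from -0.24 for *Tsnax*, a subunit of the translin nuclease, to 0.25 for *Tut4*, a terminal uridylyltransferase, with *Pnpt1*, a mitochondrial exoribonuclease, at 0.24. The value of *Tut4* was -0.11 without *Tet2/3* DKO replicate 1 and 0.52 without *Tet2/3* DKO replicate 2. *Lin28a*, *Lin28b* and *Trim71*, which act on the let-7 family, had 0 to 3 reads per library and were not tested.

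**Figure D4:**
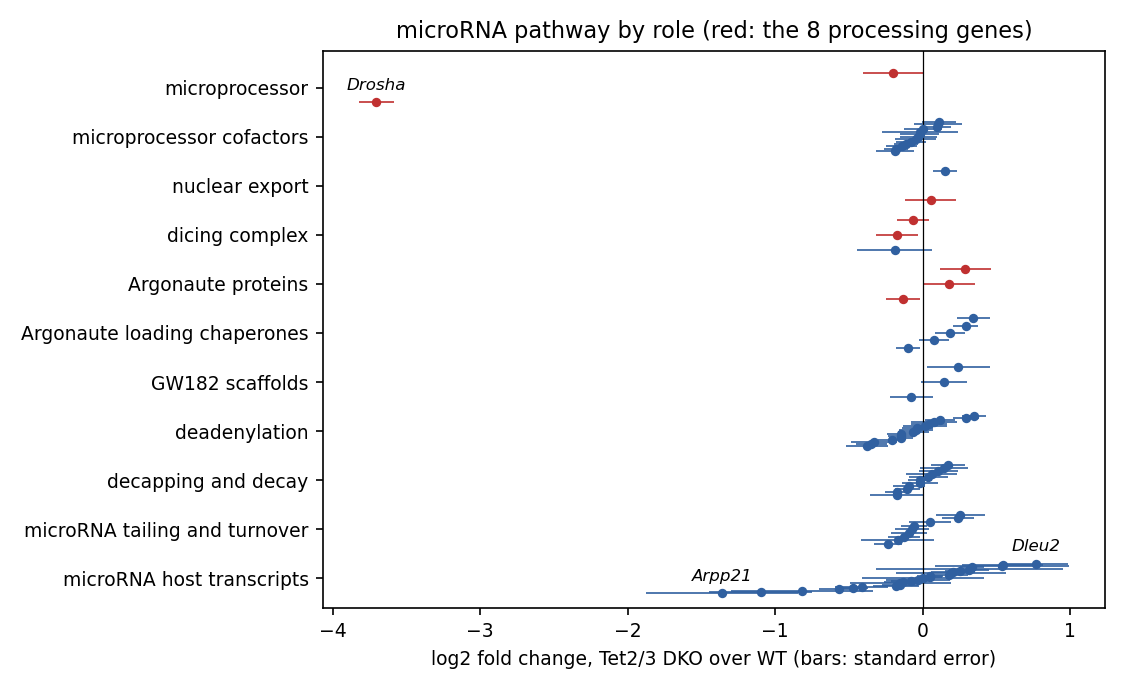
Log2 fold change of *Tet2/3* DKO over WT (x axis, bars give the standard error of the fit) for the tested genes of each step of the microRNA pathway (y axis), with the 8 processing genes in red and the 84 others in blue. *Drosha* lies alone at -3.70, and the 84 others run from -1.36 (*Arpp21*) to 0.77 (*Dleu2*).

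SMART-seq copies polyadenylated RNA, so mature microRNAs, which carry no poly(A) tail, were not measured, but transcripts that hold their hairpins were. The list of host transcripts held 25 genes, 23 of which span at least 1 RefSeq hairpin on their own strand. For the 2 others, *Ptk2* and *Dnm2*, no such hairpin was found, so they are listed genes and not shown to be hosts. The mature sequences of 8 microRNAs from 6 of the 23 hosts are given from RefSeq (GRCm38.p6). *Smc4* and *Dleu2* share the AGCAGCA seed, and *Mir17hg* and *Mcm7* share AAAGUGC. The seeds of miR-142a-3p and miR-155-5p are each shared with no other microRNA printed. Other microRNAs of these hosts are left out, among them miR-92a-3p (*Mir17hg*) and miR-25-3p (*Mcm7*), which share AUUGCAC. Capitals mark the seed, bases 2 to 8, by which a microRNA pairs with its targets.
mmu-miR-15b-5p (*Smc4*): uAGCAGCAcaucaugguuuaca
mmu-miR-16-5p (*Smc4* and *Dleu2*): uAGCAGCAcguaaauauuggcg
mmu-miR-15a-5p (*Dleu2*): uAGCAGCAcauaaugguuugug
mmu-miR-17-5p (*Mir17hg*): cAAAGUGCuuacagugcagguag
mmu-miR-93-5p (*Mcm7*): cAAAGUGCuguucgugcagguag
mmu-miR-106b-5p (*Mcm7*): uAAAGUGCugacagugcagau
mmu-miR-142a-3p (*Mir142hg*): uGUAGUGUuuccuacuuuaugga
mmu-miR-155-5p (*Mir155hg*): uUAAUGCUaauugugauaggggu

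*Smc4*, a condensin subunit whose introns hold miR-15b and miR-16, had 837, 830 and 879 CPM in WT and 1116 and 1025 CPM in *Tet2/3* DKO cells, with a log2 fold change of 0.33 (SE 0.08, edgeR adjusted p = 0.0325). *Dleu2*, a long non-coding RNA that carries miR-15a and miR-16, had 7.12, 8.89 and 6.52 CPM in WT and 14.9 and 10.4 CPM in *Tet2/3* DKO cells. Its log2 fold change was 0.77 (SE 0.22, edgeR adjusted p = 0.0683). This value was 0.47 without *Tet2/3* DKO replicate 1 and 0.98 without *Tet2/3* DKO replicate 2. Both genes were higher in each mutant library than in every WT library, as were 19.6% of all genes tested. With all 5 libraries neither passed the threshold of 0.01 by edgeR, while DESeq2 called *Smc4* (DESeq2 adjusted p = 0.00171). Of the 5 fits that leave out 1 library, edgeR called both in the 1 without *Tet2/3* DKO replicate 2, where WT alone gives the spread and the single mutant library is the one whose sex label did not hold, and neither in the 4 others. A change in the host transcript does not give the level of the mature microRNA.

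The hosts of the AAAGUGC seed overlapped between the genotypes. *Mir17hg*, the primary transcript of the miR-17-92 cluster, had 20, 30 and 39 reads in WT and 26 and 19 reads in *Tet2/3* DKO cells. *Mcm7*, a replicative helicase subunit whose gene holds miR-93 and miR-106b, had a log2 fold change of -0.08. *Mir142hg*, the host of a microRNA abundant in blood cells, had 21.4, 24.6 and 25.6 CPM in WT and 23.6 and 18.4 CPM in *Tet2/3* DKO cells. *Mir155hg*, the host of a microRNA induced by T cell activation, had 5 to 14 reads per library, too few to show a moderate difference. The 25 listed genes had a median log2 fold change of 0.00, with 13 above and 12 below 0. Of these, 9 (36%) had an unadjusted edgeR p under 0.05, against 23% of all genes tested, and 6 were higher and 7 lower without overlap between the groups, against 19.6% and 19.5% of all genes tested. Of the 59 tested pathway genes outside this list, 8 (13.6%) had an unadjusted p under 0.05.

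Among the other listed genes, *Dnm2*, a dynamin GTPase without a hairpin on its own strand, had 238, 249 and 206 CPM in WT and 168 and 165 CPM in *Tet2/3* DKO cells, with a log2 fold change of -0.47 (SE 0.10, edgeR adjusted p = 0.0199). *Aopep*, an aminopeptidase gene that carries the miR-23b, miR-27b and miR-24 hairpins, stood at -0.57 (SE 0.13, edgeR adjusted p = 0.0298). The groups did not overlap for either gene, as was so for 19.5% of all genes tested in this direction. *Ptk2*, which encodes focal adhesion kinase and spans no RefSeq hairpin, stood at -1.10 (SE 0.35, edgeR adjusted p = 0.0930), with 92, 135 and 181 reads in WT and 56 and 40 reads in *Tet2/3* DKO cells.

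Genes with a pattern like that of *Drosha* were ranked among 10636 tested genes by the root mean square difference of their centred log2 CPM from that of *Drosha* over the 5 libraries, where 0 is the same pattern. Among the 5 nearest were *Gm47015* (0.209), a long non-coding RNA on chromosome 10, *Igsf23* (0.247) and *Sh3gl3* (0.262), both on chromosome 7, and *Pstpip2* (0.331). *Igsf23*, an immunoglobulin superfamily gene, had 69.9, 67.8 and 67.6 CPM in WT and 7.48 and 7.27 CPM in *Tet2/3* DKO cells. *Pstpip2*, an adaptor protein of the actin cytoskeleton, had 8.28, 7.88 and 7.83 CPM in WT and 0.286 and 0.336 CPM in *Tet2/3* DKO cells. These genes had lower average levels than *Drosha*. In the mutant libraries *Gm47015* had 11 and 11 reads, *Sh3gl3* 6 and 9 and *Pstpip2* 6 and 6. The log2 CPM compared here add a prior count of 2, which draws such low counts closer together. The fitted log2 fold changes ran from -4.67 for *Pstpip2* to -3.21 for *Igsf23*, against -3.70 for *Drosha*.

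Markers of the sorted population and of other cells also differed between the groups. These lists were chosen with earlier results of these data known, so their counts are a description. The summed level of 8 CD4 SP markers was 10250 to 10608 CPM in WT and 7783 to 8460 CPM in *Tet2/3* DKO cells. *Cd4*, *Cd5*, *Ccr7* and *S1pr1*, 4 of those 8, were called lower, against 1.5% of all genes tested. The 5 NK and innate-like T markers were all called higher, against 2.42% of all genes tested. Their sum was 31.0 to 42.6 CPM in WT and 396 to 649 CPM in *Tet2/3* DKO cells. The 5 myeloid markers summed to 8.45 to 15.0 CPM in WT and 24.1 to 54.3 CPM in *Tet2/3* DKO cells. Of these, 0 were called by edgeR or DESeq2 and 4 had an unadjusted edgeR p under 0.05. Over all genes tested these shares were 3.92% by edgeR and 23% at the unadjusted p. The 6 double positive thymocyte markers summed to 86.9 to 96.3 CPM in WT and 48.0 to 49.9 CPM in *Tet2/3* DKO cells, with *Rag1* at 0 in every library. *Cd8b1* was the 1 gene of that list called lower (65.9 to 71.7 CPM in WT, 27.1 to 28.6 CPM in *Tet2/3* DKO cells), while *Cd8a* had 2.71 to 5.39 CPM in WT and 5.77 to 8.67 CPM in *Tet2/3* DKO cells and was not called. The 5 B cell markers summed to 5.61 to 6.96 CPM in WT and 8.62 to 9.11 CPM in *Tet2/3* DKO cells. Of the 2 that were tested, *Cd79b* had a log2 fold change of 0.75 and *Cd79a* of -0.67, and 0 were called. The 4 erythroid markers summed to at most 0.524 CPM. The 4 thymic epithelial markers summed to 10.6 to 13.1 CPM in WT and to 10.7 and 34.0 CPM in *Tet2/3* DKO cells. *Epcam* made up 33.8 CPM of the highest sum, whereas *Krt8* (0.774 to 1.94 CPM in WT, 0.191 and 0.224 CPM in *Tet2/3* DKO cells) and *Psmb11* (0.656 to 1.51 CPM in WT, 0.0477 and 0 CPM in *Tet2/3* DKO cells) were below WT in both mutant libraries without being called. Of all genes tested, 19.5% were lower without overlap. The 8 cell cycle genes summed to 736 to 887 CPM in WT and 531 to 940 CPM in *Tet2/3* DKO cells. The part of these populations in the level of *Drosha* was not tested.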

How the data were processed

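Gene counts of 5 SMART-seq libraries (3 WT, 2 *Tet2/3* DKO) were used. Per the labels and the methods of the study, the authors trimmed reads with fastp 0.21.0, aligned them to mm10 with STAR 2.7.5a and deposited whole-number counts per gene with the annotation of release 100. The counts without regard to strand were taken. Reads shared by overlapping genes or mapping to several places are not in them (6.47% to 6.73% and 7.88% to 8.20% of reads). Symbols, coordinates and merged exon lengths came from GENCODE M21 (55227 of 55487 identifiers matched).

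edgeR 4.0.16 (R 4.3.3) was run on all genes passing filterByExpr (minimum count 10), with TMM scaling, genotype as the only term, the quasi-likelihood test, Benjamini-Hochberg adjustment and a threshold of 0.01. Genes past it are called. CPM are counts per 1000000 reads on genes, with library sizes scaled by TMM. DESeq2 1.42.0 and the other alternatives are given in the closing section. On counts simulated for this comparison (13215 genes) the test recovered 50 of 50 genes raised and 50 of 50 lowered 4-fold, and 44 and 39 of 50 at 2-fold. The simulation gave every gene the same fixed dispersion, which was not estimated from these libraries. It changed only genes above a low limit of WT CPM, so these rates do not cover genes with few reads. The depth gave 226 reads or more for *Drosha* in each library. p-values measure the spread between single mice.

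The members and lists were chosen with earlier results of these data known, so the members' change is a description: their rows come from the fit on all genes, and their calls and ranks are printed beside the background without being read as evidence. From each other list the text names every gene called and up to 3 with the largest log2 fold change at an average log2 CPM of at least 1, plus the neighbours of *Drosha*, the 5 genes most like it, *Tet2*, *Tet3* and *Xist*. *Mir17hg*, *Mir142hg*, *Mir155hg*, *Mcm7*, *Ago4*, *Hsp90aa1*, *Dnaja2*, *Lin28a*, *Lin28b*, *Trim71* and the marker genes named were added after their values were seen. Some genes that this rule names are not reported here. T cell receptor clone files were not used.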

Additional observations from a re-analysis of the deposited data

How the results depend on the processing

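The log2 fold change of *Drosha* ran from -3.75 to -3.66 over 15 alternatives, and its distance below the median of the 7 others from -3.70 to -3.59. The 7 others stayed within 1 SD of their values, except *Dicer1* (-0.40), *Ago1* (0.02) and *Ago3* (0.10) without *Tet2/3* DKO replicate 1 and *Ago2* (-0.26) without *Tet2/3* DKO replicate 2. *Xpo5* was below 0 in 3 of 15. Genes called numbered 530, and 1173 at a threshold of 0.05, 1027 by DESeq2 and 110 to 1311 with a library left out (152, 110 and 127 without WT replicates 1, 2 and 3, and 1311 and 1148 without *Tet2/3* DKO replicates 1 and 2). A mutant library left alone is assumed to vary like WT. The share of calls that were higher was 61.7%, and 72.0% without *Tet2/3* DKO replicate 1. Other pathway genes called numbered 0, and 4 at 0.05, 4 by DESeq2 and 0 to 5 with a library left out: *Aopep* without *Tet2/3* DKO replicate 1, and *Tnrc6b*, *Cnot10*, *Tut4*, *Dleu2* and *Smc4* without *Tet2/3* DKO replicate 2. The cause was not tested. Per kilobase of the longest transcript, WT levels were 36.5 for *Drosha*, 2.74 for *Dgcr8*, 3.49 for *Dicer1*, 3.61 for *Xpo5*, 17.2 for *Tarbp2* and 1.39 for *Ago1*.

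Replicate numbers are shared between genotypes, but the mice differ, and the deviations of same-numbered libraries correlated at 0.02 and 0.00 over genes. With the replicate number as a block, 358 genes and 0 other pathway genes were called, *Drosha* stood at -3.70 and its distance from the median of the 7 others was -3.69.

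With 2 mutant mice, the SE of the log2 fold change was 0.17 to 0.21 for the less abundant *Dgcr8*, *Xpo5*, *Ago1* and *Ago3* and 0.11 to 0.14 for the 4 other members.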

Other observations

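Annotated microRNA genes, a class chosen after the data were seen, numbered 2207 in the count files, of which 223 had at least 1 read in a library. Only 11 passed the filter on low counts, and 0 of these were called by edgeR or by DESeq2 at an adjusted p under 0.01, with 0 at an unadjusted edgeR p under 0.05. Over all genes tested these shares were 3.92% by edgeR and 23% at the unadjusted p, so the count of 0 calls among 11 genes says nothing of the class. *Mir150*, a hairpin gene of a microRNA abundant in mature lymphocytes, had 22, 19 and 24 reads in WT and 11 and 6 reads in *Tet2/3* DKO cells, with a log2 fold change of -0.94 (SE 0.47, edgeR adjusted p = 0.282). *Mir1931*, another of the 11 genes, had 17, 18 and 30 reads in WT and 51 and 15 reads in *Tet2/3* DKO cells. Its log2 fold change was positive and larger in size (SE 0.498, edgeR adjusted p = 0.274), and its groups overlapped. *Mir150* and *Mir1931* thus differed in direction. Reads at such a locus come from a longer transcript and not from the mature microRNA, which the library protocol does not capture.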
